A study of Rattus norvegicus with 8 samples.

Results

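The genes described here are a module of cell cycle and DNA replication genes, read in the small intestine of rats with cystic fibrosis (CF) and of wild-type (WT) rats. The module was a list of 36 gene symbols, and a member was the locus of the deposited table whose name was exactly 1 listed symbol. That found 34 members among 52753 loci, and all 34 were among the 16941 loci with enough fragments to be tested. Ccnb2, a mitotic cyclin, had no locus of that name, and Foxm1, a transcription factor of the mitotic genes, was named only together with another gene, so neither was read. The members were 13 genes of DNA replication, 6 of G1 and S phase control and 15 of mitosis.

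The series holds 8 libraries, 4 from CF and 4 from WT small intestine, all from Sprague Dawley rats at postnatal day 21. CF comes from loss of CFTR, an epithelial anion channel, and the comparison asks how the intestine of CF rats differs from that of WT rats. RNA came from the whole length of the flushed and opened small intestine, and the libraries were of stranded mRNA. The labels give no CFTR allele, sex, litter or batch and do not say that each library is a separate animal, so p-values measure only the spread between these libraries. CF library 0 to CF library 3 and WT library 0 to WT library 3 are the numbers in the deposited table, and a number shared by a CF and a WT library carries no pairing.

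In the small intestine cells divide in the crypts. Stem cells at the crypt base and the transit-amplifying cells above them cycle quickly, and their progeny leave the cycle as they move onto the villus. Cyclin D and cyclin E kinases release E2F transcription factors, which switch on genes for origin licensing, the replication fork and deoxynucleotide supply. Genes used in G2 phase and mitosis peak later, through the DREAM, B-MYB and FOXM1 factors, and many of them carry a CHR element (cell cycle genes homology region) with nearby CCAAT boxes in the promoter.

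The promoters of 3 members are shown as examples of the motifs for which replication and mitosis genes are known. They were chosen after the matches were known, as examples with many matches. Each is the 250 bases before the gene's start from RefSeq, in the GRCr8 build, printed 5′ to 3′ on the gene's strand. Capitals mark E2F-type matches (TTCCCGC and the variants spelled TTGGCGC, spelled TTCGCGC and spelled TTGCCGC), CHR matches (TTTGAA, with TTCGAA as the variant) and CCAAT matches, each on either strand. Mcm6 (chr13:42404353-42404602, minus strand) encodes a subunit of the replicative helicase. Cdk1 (chr20:19265043-19265292, plus strand) encodes the kinase that drives entry into mitosis, and Mki67 (chr1:199952594-199952843, minus strand) the proliferation marker Ki-67.
Mcm6: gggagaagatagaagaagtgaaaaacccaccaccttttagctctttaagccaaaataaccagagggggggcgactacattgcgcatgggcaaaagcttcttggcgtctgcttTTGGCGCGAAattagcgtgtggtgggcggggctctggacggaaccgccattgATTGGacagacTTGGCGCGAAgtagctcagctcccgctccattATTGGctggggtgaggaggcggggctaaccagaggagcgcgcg
Cdk1: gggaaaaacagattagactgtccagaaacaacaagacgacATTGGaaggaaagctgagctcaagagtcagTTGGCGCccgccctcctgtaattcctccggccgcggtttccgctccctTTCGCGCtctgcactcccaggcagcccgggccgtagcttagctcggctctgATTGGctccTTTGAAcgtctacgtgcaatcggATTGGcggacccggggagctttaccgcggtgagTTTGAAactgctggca
Mki67: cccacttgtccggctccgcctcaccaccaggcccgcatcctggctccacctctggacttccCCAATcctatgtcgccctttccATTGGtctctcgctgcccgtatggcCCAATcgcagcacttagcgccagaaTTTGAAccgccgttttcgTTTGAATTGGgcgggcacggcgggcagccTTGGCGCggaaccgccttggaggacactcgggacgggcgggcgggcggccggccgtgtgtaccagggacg
The Mcm6 window held 4 E2F-type matches, which overlap in pairs, together with 2 CCAAT matches and no CHR match. The Cdk1 window held 2 E2F-type, 2 CHR and 3 CCAAT matches. The Mki67 window held 1 E2F-type, 2 CHR and 4 CCAAT matches, with 1 CHR match overlapping a CCAAT match.

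Promoter windows were found for 25 of the 36 listed symbols, Ccnb2 included, and are compared with all 33469 windows of the same length in the table. An E2F-type match was in 6 of 10 replication windows (60.0%) and in 3 of 13 mitosis windows (23.1%), against 7.59% of all windows. A CHR match was in 3 of 10 replication windows (30.0%) and in 7 of 13 mitosis windows (53.8%), against 17.4% of all windows. A CCAAT match was in 7 of 10 replication windows (70.0%) and 10 of 13 mitosis windows (76.9%), against 34.0% of all windows. No window was read for Mcm4, Cdc6, Rrm2, Ccnd1, Ccnd2, Ccne2, E2f1, Ccna2, Foxm1, Aurkb and Tpx2. Aurka, the mitotic kinase with the smallest adjusted p of the module, had no match to these letters in its window. Such matches describe the letters of the window and do not show binding.

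The libraries held 15.3 M to 20.9 M fragments, and members had 132 to 6650 fragments in a library. Cftr itself, the gene of the channel, was at 97.3 ± 6.397 CPM in the CF libraries and 94.8 ± 14.7 CPM in the WT libraries (SD, n = 4 each), with a log2 fold change of 0.04 (standard error 0.12, adjusted p = 0.916). All 8 markers of small intestinal epithelium were found, none at 0 in every library, with a summed level of 5814 to 10867 CPM in CF and 6475 to 9794 CPM in WT. CF library 0 stood apart in absorptive enterocyte markers, 11 of 12 of which were found, with a summed level of 10127 CPM. The sum was 19206 to 28217 CPM in the other CF libraries and 15509 to 26653 CPM in WT. Here and below, CPM is the usual count scaled to the library's total, after TMM scaling between libraries.

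No cell cycle member differed between CF and WT at an adjusted p under 0.05 by the quasi-likelihood test of edgeR, with p-values adjusted by Benjamini and Hochberg's method over all 16941 loci. The test called 28 loci, 0.165% of those tested. Of the 34 members 28 (82.4%) had a log2 fold change above 0, against 49.2% of all loci. The median log2 fold change was 0.11 over the members and −0.00 over all tested loci. The smallest adjusted p of a member was 0.149, for Aurka. At an unadjusted p under 0.05 stood 9 members, which is 26.5% of the members and compares with 15.1% of all loci. Without CF library 0 it was 3 members (8.82%), against 15.6% of all loci in that fit, so the members' share was above that of all loci with the library and below it without. Of the 9 members in the fit of all 8 libraries, 7 were higher in CF (7.94% of all loci were) and 2 were lower (7.21% of all loci were). DESeq2's Wald test, which called 621 of 16594 loci (3.74%, with 2.52% higher in CF), called 1 member, Aurka, higher in CF with an adjusted p of 0.0326. In tissue RNA, more or fewer cycling cells and more or less RNA per cell cannot be told apart.

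**Figure D1:**
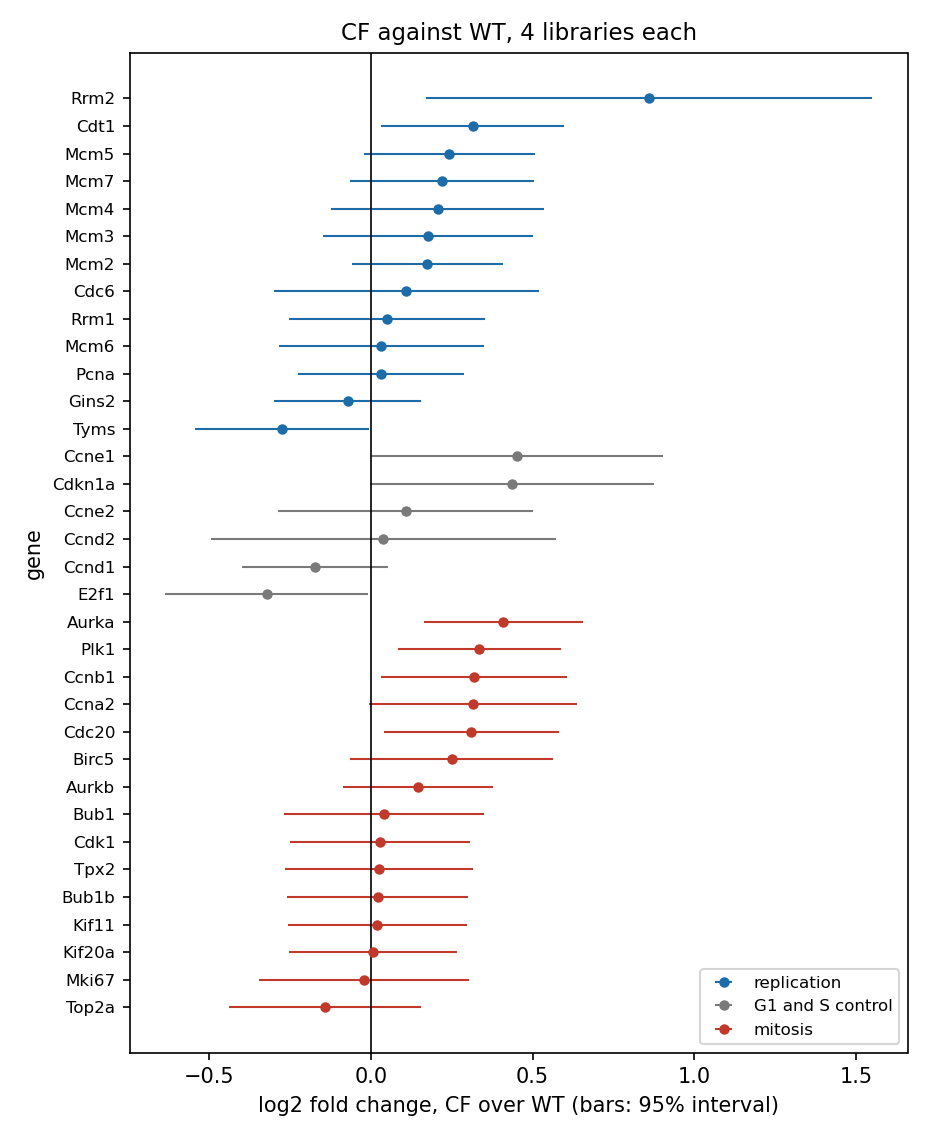
Log2 fold change, CF over WT, of each of the 34 members (points) with its 95% interval (bars), from 4 CF and 4 WT libraries, coloured by role. Most points lie between 0 and 0.45, Rrm2 lies farthest right at 0.86, and Tyms and E2f1 lie farthest left at −0.27 and −0.32.

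The plot of fold changes shows how narrow most intervals were. The whole 95% interval lay within a 2-fold change in either direction for 33 of the 34 members, all but Rrm2, and within a 1.5-fold change for 25. The CF and WT libraries did not overlap for 2 members, Cdt1 and Aurka, both higher in CF. That is 5.88% of the members, against 8.78% of all loci (4.86% higher in CF).

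The 6 genes of the MCM2 to MCM7 helicase, which unwinds DNA at the fork, had higher means in CF, and none passed the test. Mcm5 had 78.98, 55.8, 60.7 and 64.3 CPM in CF libraries 0 to 3, against 57.6, 57.8, 49.4 and 54.7 CPM in WT libraries 0 to 3. Its means were 64.9 ± 9.99 CPM in the CF libraries and 54.9 ± 3.91 CPM in the WT libraries (SD, n = 4 each), a log2 fold change of 0.24 (standard error 0.12, adjusted p = 0.368). CF library 0 was the highest of the 8 libraries, CF libraries 3 and 2 came next, and CF library 1 lay inside the WT range. Mcm7 had 89.5, 59.5, 63.3 and 73.9 CPM in CF libraries 0 to 3, against 64.1, 58.3, 61.05 and 62.5 CPM in WT libraries 0 to 3. Its log2 fold change was 0.22 (standard error 0.13), with CF libraries 0 and 3 above every WT library. Mcm2, Mcm3 and Mcm4 had log2 fold changes of 0.18, 0.18 and 0.21, and in each of them CF library 0 was far above the rest. Mcm3, for example, had 54.0, 33.5, 36.8 and 37.7 CPM in CF libraries 0 to 3, against 37.4, 37.4, 32.6 and 35.97 CPM in WT libraries 0 to 3. Mcm6, whose promoter is printed above, had 81.5, 50.4, 65.2 and 65.2 CPM in CF libraries 0 to 3, against 66.2, 57.6, 60.2 and 72.6 CPM in WT libraries 0 to 3. CF library 1 was the lowest of the 8 and CF library 0 the highest, and the log2 fold change was 0.03 (standard error 0.14). The fold change was −0.09 without CF library 0, −0.01 without WT library 1 and −0.00 in limma on log2(FPKM + 0.1). Without CF library 0 the median log2 fold change of these 6 genes was 0.07, in place of 0.19.

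Of the licensing factors, Cdt1 separated the groups and Cdc6 did not. Cdt1 (chr19:55381564-55386511, Rnor_6.0 as in the deposited table), which loads the helicase onto origins, had 19.3, 17.04, 17.4 and 22.3 CPM in CF libraries 0 to 3, against 16.9, 14.2, 16.3 and 13.7 CPM in WT libraries 0 to 3. Every CF library was above every WT library, by a narrow margin between the lowest CF and the highest WT value. The log2 fold change was 0.31 (standard error 0.13, adjusted p = 0.287), and it was 0.31 without CF library 0. Cdc6, the partner of CDT1 in loading, had 15.9, 8.69, 10.6 and 13.1 CPM in CF libraries 0 to 3, against 11.8, 12.04, 9.55 and 11.3 CPM in WT libraries 0 to 3. Its CF values spanned the whole WT range, with CF library 0 the highest and CF library 1 the lowest of the 8 libraries, and the log2 fold change was 0.11 (standard error 0.19).

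For Pcna and Gins2, which also act at the fork, the means of CF and WT were close. Pcna, the sliding clamp that holds the polymerases on DNA, had 119, 89.7, 89.6 and 92.1 CPM in CF libraries 0 to 3, against 89.5, 99.8, 89.9 and 102.5 CPM in WT libraries 0 to 3. CF library 0 stood above the other 7 libraries, which lay close together, and the log2 fold change of 0.03 (standard error 0.12) was −0.08 without that library. Gins2, a subunit of the GINS complex of the active helicase, was at 50.4 ± 5.04 CPM in the CF libraries and 52.9 ± 3.82 CPM in the WT libraries, a log2 fold change of −0.07 (standard error 0.10). Its locus spans 104 kb and holds fractional fragment values, so reads of neighbouring genes may be included.

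The 3 genes of deoxynucleotide supply had fold changes of different sign, and none passed the test. Rrm2 (chr6:43884677-43889515), the S-phase subunit of ribonucleotide reductase, had 110.2, 43.8, 41.9 and 85.2 CPM in CF libraries 0 to 3, against 41.8, 41.9, 32.04 and 39.2 CPM in WT libraries 0 to 3. CF libraries 0 and 3 were far above the other 6, while CF libraries 1 and 2 were at or just above the top of the WT range. Its means were 70.3 ± 33.3 CPM in the CF libraries and 38.7 ± 4.64 CPM in the WT libraries (SD, n = 4 each), a log2 fold change of 0.86 (standard error 0.30, adjusted p = 0.245). The value was 0.56 without CF library 0, and 0.15 without CF libraries 0 and 3. Those are also the CF libraries with the highest summed level of neutrophil markers. All 6 neutrophil markers were found and none was at 0 in every library. They summed to 37.7 and 13.3 CPM in CF libraries 0 and 3, to 4.18 and 3.57 CPM in CF libraries 1 and 2, and to 0.887 to 2.80 CPM in WT. Their part in the Rrm2 values was not tested.

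Rrm1, the large subunit of the same enzyme, did not share that pattern of 2 high libraries. It had 141, 91.5, 101 and 106 CPM in CF libraries 0 to 3, against 109.9, 106, 94.4 and 114 CPM in WT libraries 0 to 3, so CF library 0 alone lay above the WT range. Its log2 fold change was 0.05 (standard error 0.14). Tyms (chr9:121912164-121931622), the thymidylate synthase that makes dTMP, had a lower mean in CF. It had 62.2, 47.6, 51.8 and 50.7 CPM in CF libraries 0 to 3, against 66.7, 71.5, 65.05 and 53.4 CPM in WT libraries 0 to 3. CF library 0 was above WT library 3, and the other CF values were below all WT values. The log2 fold change was −0.27 (standard error 0.12, adjusted p = 0.321), and it was −0.36 without CF library 0.

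**Figure D2:**
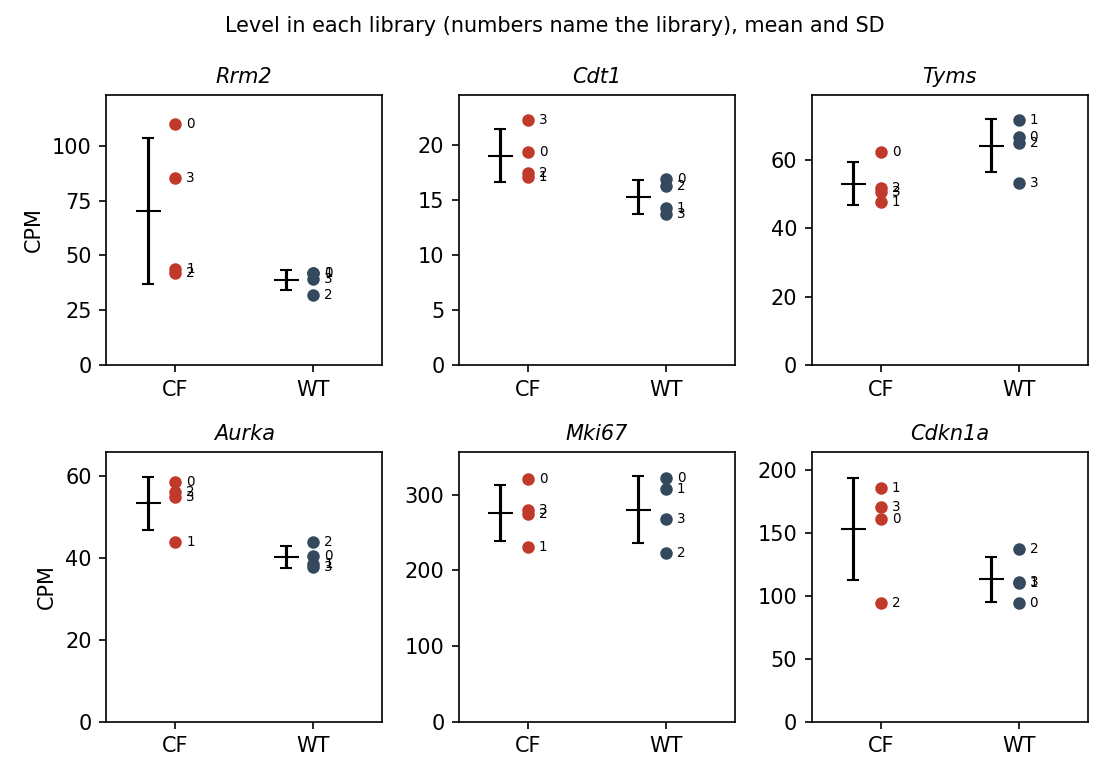
Level in CPM of 6 members in each library (points, numbered by library), with the mean and SD of each group of 4 at the left of its points. Rrm2 shows 2 high CF libraries, Cdt1 and Aurka show groups that just separate, Tyms is lower in 3 CF libraries, and Mki67 overlaps fully.

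Of the G1 and S phase control genes, 4 of 6 had higher means in CF and none passed the test. Ccne1, the cyclin E1 that starts S phase, had 16.2, 8.63, 8.89 and 12.4 CPM in CF libraries 0 to 3, against 8.03, 8.28, 8.102 and 9.35 CPM in WT libraries 0 to 3. CF libraries 0 and 3 were above all WT libraries and the other CF libraries were among them. The log2 fold change was 0.45 (standard error 0.20, adjusted p = 0.328), and 0.24 without CF library 0. The related Ccne2 had a log2 fold change of 0.11 (standard error 0.18), from a 58.9 kb locus with fractional fragment values. Among the D cyclins, which link growth signals to the cycle, Ccnd1 was at 86.5 ± 8.37 CPM in the CF libraries and 97.5 ± 6.74 CPM in the WT libraries (log2 fold change −0.17, standard error 0.10). Ccnd2 varied most within WT and had 77.4, 55.3, 64.7 and 76.0 CPM in CF libraries 0 to 3, against 104, 63.6, 48.3 and 50.2 CPM in WT libraries 0 to 3. WT library 0 was far above the other WT libraries and above every CF library, and the log2 fold change was 0.04 (standard error 0.24).

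E2f1, the E2F factor that activates replication genes, had a lower mean in CF. It had 9.21, 9.42, 10.4 and 8.08 CPM in CF libraries 0 to 3, against 13.4, 11.8, 11.3 and 9.76 CPM in WT libraries 0 to 3. CF library 2 was above WT library 3, and all other CF values were below all WT values. The log2 fold change was −0.32 (standard error 0.14, adjusted p = 0.321) and −0.32 without CF library 0. Cdkn1a (chr20:6351457-6358864), the p21 inhibitor of cyclin-dependent kinases, had 161, 186, 94.97 and 171 CPM in CF libraries 0 to 3, against 94.5, 110.3, 137 and 111.5 CPM in WT libraries 0 to 3. CF libraries 0, 1 and 3 were above every WT library, and CF library 2 was level with the lowest WT value. The log2 fold change was 0.44 (standard error 0.20, adjusted p = 0.331) and 0.41 without CF library 0.

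Among the mitosis members Aurka, Plk1, Ccnb1, Ccna2 and Cdc20 had the largest differences, and none passed the test. Aurka (chr3:170354109-170392160), the Aurora A kinase of centrosome and spindle assembly, had 58.6, 43.95, 56.03 and 54.9 CPM in CF libraries 0 to 3, against 40.4, 38.5, 43.9 and 37.8 CPM in WT libraries 0 to 3. All CF values were above all WT values, with CF library 1 only just above WT library 2. The means were 53.4 ± 6.47 CPM in the CF libraries and 40.2 ± 2.73 CPM in the WT libraries (SD, n = 4 each), a log2 fold change of 0.41 (standard error 0.11, adjusted p = 0.149). Without CF library 0 it was 0.36. The Aurka locus spans 38.0 kb and holds fractional fragment values.

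Plk1, the Polo-like kinase that acts throughout mitosis, had 98.6, 80.0, 83.6 and 98.2 CPM in CF libraries 0 to 3, against 67.6, 83.1, 69.1 and 65.9 CPM in WT libraries 0 to 3. CF library 1 was below WT library 1, and the other CF libraries were above all of WT. The log2 fold change was 0.33 (standard error 0.11, adjusted p = 0.224). Ccnb1, the cyclin B1 partner of CDK1, had 59.9, 43.6, 45.8 and 57.7 CPM in CF libraries 0 to 3, against 41.1, 47.2, 36.7 and 40.8 CPM in WT libraries 0 to 3. CF libraries 0 and 3 were again the highest of the 8, and the log2 fold change was 0.32 (standard error 0.13, adjusted p = 0.287). Cdc20, the activator of the anaphase-promoting complex that degrades cyclin B, had 66.7, 49.1, 54.0 and 64.5 CPM in CF libraries 0 to 3, against 51.98, 50.2, 43.4 and 43.4 CPM in WT libraries 0 to 3. It had the same 2 high CF libraries and a log2 fold change of 0.31 (standard error 0.12, adjusted p = 0.276).

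Ccna2, the cyclin A2 of S and G2 phase, was at 82.1 ± 16.6 CPM in the CF libraries and 65.98 ± 6.38 CPM in the WT libraries, a log2 fold change of 0.32 (standard error 0.14) from a 58.5 kb locus. Birc5, which encodes survivin of the chromosomal passenger complex, had 39.2, 26.3, 24.9 and 28.97 CPM in CF libraries 0 to 3, against 24.8, 25.5, 25.4 and 24.7 CPM in WT libraries 0 to 3. The 4 WT values lay within 1 CPM of each other, CF library 0 was far above them, and the log2 fold change of 0.25 (standard error 0.14) was 0.09 without that library. Aurkb, the Aurora B kinase of the same complex, had a log2 fold change of 0.15 (standard error 0.11). Without CF library 0 Aurkb was also at 0.09. Survivin and Aurora B act together at centromeres and the midzone. Neither gene passed the test, and their shared direction was that of 13 of the 15 mitosis members.

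For 7 mitosis members the means of CF and WT were close to equal. Cdk1 had 62.3, 43.7, 46.02 and 51.1 CPM in CF libraries 0 to 3, against 51.1, 52.2, 43.4 and 52.4 CPM in WT libraries 0 to 3. CF library 0 was above the other libraries, WT library 2 and CF library 1 were the lowest, and the log2 fold change was 0.03 (95% interval −0.25 to 0.31). The spindle checkpoint genes Bub1 and Bub1b had log2 fold changes of 0.04 (95% interval −0.27 to 0.35) and 0.02 (−0.26 to 0.30). The spindle motor genes Kif11 and Kif20a were at 0.02 (−0.26 to 0.30) and 0.01 (−0.25 to 0.27), and Tpx2, which activates Aurora A on spindle microtubules, was at 0.03 (−0.27 to 0.32).

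Mki67, the most used marker of cycling cells, had 321, 230.5, 275 and 279 CPM in CF libraries 0 to 3, against 322, 308, 223 and 267 CPM in WT libraries 0 to 3. Its values covered almost the same range in both groups, with CF library 1 and WT library 2 low in each. The means were 276 ± 36.9 CPM in the CF libraries and 280.3 ± 44.5 CPM in the WT libraries (SD, n = 4 each), a log2 fold change of −0.02 with a 95% interval of −0.34 to 0.30. Top2a, the topoisomerase that untangles sister chromatids, had 205.5, 149, 159.9 and 166 CPM in CF libraries 0 to 3, against 211, 204.5, 161.5 and 173 CPM in WT libraries 0 to 3. Its log2 fold change was −0.14 (standard error 0.13), and it was −0.24 without CF library 0.

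Replication and mitosis members were high and low in nearly the same libraries. The score of a gene group in a library is the mean over its genes of log2 CPM after subtraction of each gene's mean over the 8 libraries. The replication score was 0.39, −0.16, −0.06 and 0.10 in CF libraries 0 to 3, against 0.01, −0.05, −0.16 and −0.07 in WT libraries 0 to 3. The mitosis score was 0.30, −0.14, −0.01 and 0.12 in CF libraries 0 to 3, against 0.02, 0.05, −0.20 and −0.15 in WT libraries 0 to 3. Both were highest in CF library 0, next in CF library 3, and lowest in WT library 2 (mitosis) or CF library 1 (replication). The replication score minus the mitosis score was 0.09, −0.02, −0.04 and −0.01 in CF libraries 0 to 3, against −0.02, −0.11, 0.04 and 0.08 in WT libraries 0 to 3. Its mean was 0.00 ± 0.06 in CF and −0.00 ± 0.08 in WT (SD, n = 4 each). By this score the balance of replication and mitosis genes differed between the groups by less than the spread between libraries. The median log2 fold change was 0.18 over the replication members and 0.04 over the mitosis members. Without CF library 0 these medians were 0.01 and −0.01.

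**Figure D3:**
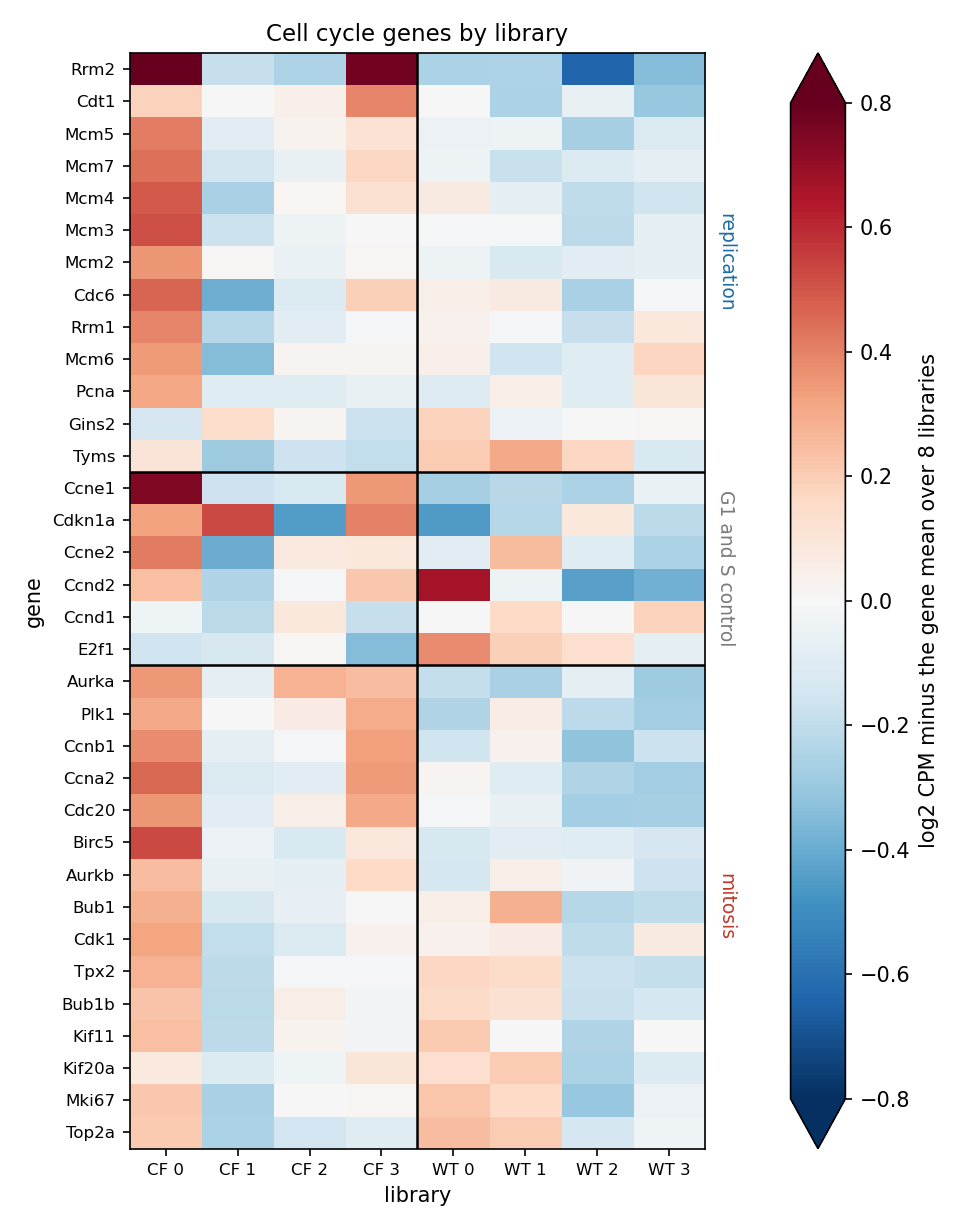
Log2 CPM of each member minus its mean over the 8 libraries (colour, clipped at 0.8 either way), with libraries in columns, CF left of WT, and genes in rows by role. The CF library 0 column is red for most genes, the CF library 1 and WT library 2 columns are mostly blue, and E2f1 and Tyms are red in WT libraries 0, 1 and 2.

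The map of members by library shows that much of the spread followed the library. CF library 0 held the highest of the 8 values for 23 of 34 members (67.6%), against 21.3% of all tested loci. WT library 2 held the lowest value for 11 members and CF library 1 for 10. CF libraries 0 and 3 were the 2 highest libraries for 15 members. Without CF library 0, 16 of the 34 members had a log2 fold change above 0 (47.1%), which is close to the 47.2% of all loci in that fit. The median over the members was then −0.02.

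**Figure D4:**
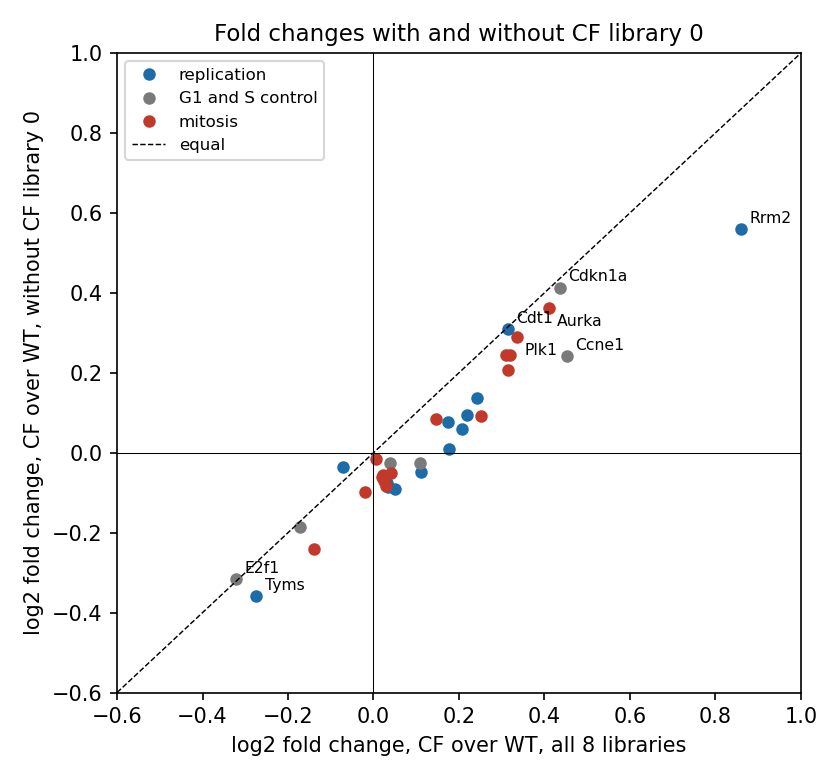
Log2 fold change, CF over WT, of the 34 members with all 8 libraries (horizontal axis) and without CF library 0 (vertical axis), coloured by role, with the line of equal values. Nearly all points lie below the line, and Rrm2, Cdkn1a, Aurka, Cdt1 and Plk1 stay farthest above 0.

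The plot with and without CF library 0 shows how far each member's fold change moved when that library was left out. For the 23 members with their highest value in that library, a fall is built into the comparison. Leaving out WT library 2 also lowered the number of members above 0, to 20. Cdt1, E2f1 and Cdkn1a had nearly the same log2 fold change in both fits. The MCM genes, Birc5 and Ccne1 lost much of theirs, and 12 members, Cdk1 among them, went to a value below 0.

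The same library was the lowest in absorptive enterocyte markers, with a score of −0.92, against 0.49, 0.05 and 0.18 in CF libraries 1 to 3 and −0.28 to 0.42 in WT. For markers of crypt base stem cells, sum and score placed CF library 0 differently. All 10 were found, with a summed level of 1001 to 1135 CPM in CF and 832 to 976 CPM in WT. All CF sums were thus above all WT sums, and CF library 0 had the highest of the 8, at 1135 CPM. By score CF library 0 was at 0.07, below WT library 0 at 0.09, and the WT scores ran from −0.14 to 0.09. More than any other marker the sum holds Olfm4, which was at 579 ± 25.4 CPM in the CF libraries and 473.5 ± 46.6 CPM in the WT libraries. The CF values of Olfm4 were all above its WT values (log2 fold change 0.29, adjusted p = 0.282 by edgeR's test). Of the 10, 5 had a log2 fold change above 0 and 5 below, with a median of −0.01, and none was called by edgeR's test. The CF and WT values did not overlap for 40% of the 10, 2 higher and 2 lower in CF, against 8.78% of all loci. At an unadjusted p under 0.05 by edgeR's test stood 40%, 3 higher and 1 lower in CF, against 15.1% of all loci. The stem cell receptor gene Lgr5, named after its values were seen, was at 8.16 ± 0.7601 CPM in the CF libraries and 14.2 ± 3.64 CPM in the WT libraries, with CF values all below WT values (log2 fold change −0.79, adjusted p = 0.101, against 0.00635 by DESeq2's Wald test, which called it). Lymphocyte markers, 12 of 13 of which were found, summed to 91.8 to 141 CPM in CF and 87.6 to 133 CPM in WT. Smooth muscle markers (6 of 8 found) summed to 5678 to 7376 CPM in CF and 3765 to 5530 CPM in WT, and fibroblast markers (4 of 6) to 679 to 1232 CPM in CF and 996 to 1733 CPM in WT. Vessel endothelium markers (5 of 6) summed to 79.99 to 127 CPM in CF and 121 to 159 CPM in WT, and red cell markers (5 of 6) to 50.8 to 70.5 CPM in CF and 79.4 to 234 CPM in WT. The part of these cell mixtures in the cell cycle values was not tested.

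**Figure D5:**
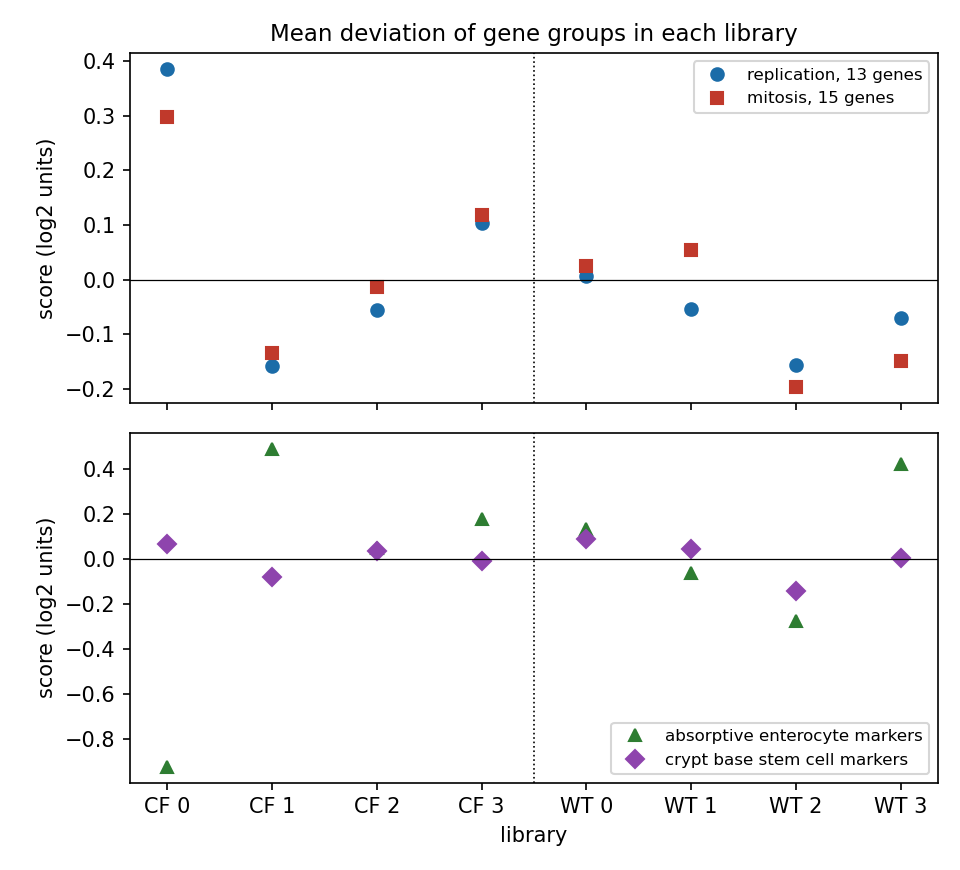
Score of gene groups in each library (mean over genes of log2 CPM minus the gene's mean over 8 libraries), with replication and mitosis members in the upper panel and markers of absorptive enterocytes and crypt base stem cells in the lower, CF left of the dotted line and WT right of it. CF library 0 is highest in both cell cycle groups (0.39 and 0.30) and lowest in enterocyte markers (−0.92).

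Stress genes that respond to tissue handling also stood higher in CF. Of 13 listed 12 were found and tested, and all 12 had a log2 fold change above 0, against 49.2% of all loci. By edgeR's test 1 was called, the transcription factor gene Junb, against 0.165% of all loci. At an unadjusted p under 0.05 by that test stood 66.7% of the 12, 8 higher and 0 lower in CF, against 15.1% of all loci. The CF and WT values did not overlap for 41.7%, 5 higher and 0 lower in CF, against 8.78% of all loci. Without CF library 0 the test called 4 of the 12, among 136 of 17407 loci. Junb was at 88.3 ± 9.504 CPM in the CF libraries and 40.1 ± 1.92 CPM in the WT libraries (log2 fold change 1.14, standard error 0.10, adjusted p = 0.00147). The summed level of the 12 was 404 to 501 CPM in CF and 236 to 343 CPM in WT. Their part in the cell cycle values was not tested.

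Levels can be compared between genes on the FPKM scale, which divides by transcript length. These are the authors' values, in which CF library 3 lay 0.28 log2 units lower than in CPM and CF library 0 lay 0.13 higher, as medians over loci. The most abundant member was Pcna, at 94.97 ± 19.7 FPKM in CF and 94.4 ± 13.8 FPKM in WT (SD, n = 4 each). Cdkn1a followed, at 75.1 ± 24.1 FPKM in CF and 56.7 ± 5.53 FPKM in WT. Next in the CF means came Rrm2, at 64.2 ± 30.5 FPKM in CF and 35.9 ± 5.14 FPKM in WT, and in the WT means Ccnd2, at 42.8 ± 9.195 FPKM in CF and 43.6 ± 18.6 FPKM in WT. Rrm1, the large reductase subunit, was at 32.8 ± 6.96 FPKM in CF and 31.9 ± 3.75 FPKM in WT, so it differed from Rrm2 by less than the SD of Rrm2 in WT, and by about that SD in CF, where Rrm2 was highest in libraries 0 and 3. The lowest members were E2f1, at 3.19 ± 0.853 FPKM in CF and 4.15 ± 1.18 FPKM in WT, Cdc6, at 3.71 ± 1.201 FPKM in CF and 3.44 ± 0.529 FPKM in WT, and Ccne1, at 4.75 ± 1.995 FPKM in CF and 3.49 ± 0.198 FPKM in WT, and their ranges of mean ± SD overlapped. Mki67, one of the members with the most fragments, was at 16.6 ± 2.38 FPKM in CF and 16.7 ± 2.95 FPKM in WT, in the middle of the module.

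The MCM genes, whose proteins form a hexamer with 1 copy of each, were on the FPKM scale between Mcm7 and Mcm3. Mcm7 was the highest of them, at 25.4 ± 9.098 FPKM in CF and 22.1 ± 3.66 FPKM in WT, and Mcm3 the lowest, at 10.8 ± 3.91 FPKM in CF and 9.398 ± 0.8102 FPKM in WT. Of the kinase that starts mitosis and its cyclin, Cdk1 was at 38.4 ± 8.59 FPKM in CF and 37.4 ± 4.84 FPKM in WT. Ccnb1 was below it, at 28.4 ± 5.198 FPKM in CF and 23.2 ± 3.41 FPKM in WT. Neighbouring members in this order mostly differed by less than their SDs.

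Other genes of the same processes were read from lists that did not overlap the module. Of 48 further replication genes 45 were tested and none was called. Of these, 35 (77.8%) had a log2 fold change above 0, and the median was 0.10. Tk1, the thymidine kinase of the salvage route to dTTP, had 102, 79.3, 74.3 and 95.7 CPM in CF libraries 0 to 3, against 71.3, 70.1, 62.8 and 59.9 CPM in WT libraries 0 to 3, with all CF values above all WT values and a log2 fold change of 0.41 (adjusted p = 0.176). Dut, which clears dUTP, had a log2 fold change of 0.42 and 0.20 without CF library 0. The most abundant by FPKM were Rpa3, a subunit of the single-strand binding complex RPA (log2 fold change 0.18), and the locus of the polymerase alpha gene Pola2 (0.12), whose 130 kb span may include other genes. CF library 0 was the highest library for 35 of the 45 genes. The CF and WT values did not overlap for 6.67% of the 45, 3 higher and 0 lower in CF, against 8.78% of all loci.

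Of 52 further mitosis genes 48 were tested and none was called. Of these, 34 (70.8%) had a log2 fold change above 0, and the median was 0.06. Nusap1, which bundles spindle microtubules, had 40.5, 43.8, 41.2 and 39.1 CPM in CF libraries 0 to 3, against 56.6, 50.7, 44.1 and 50.4 CPM in WT libraries 0 to 3. All CF values were below all WT values, and the log2 fold change was −0.29 (standard error 0.10, adjusted p = 0.224). Cdc25c, the phosphatase that activates CDK1, was in the other direction, with 18.8, 13.9, 13.04 and 16.9 CPM in CF libraries 0 to 3, against 12.9, 12.9, 10.9 and 10.2 CPM in WT libraries 0 to 3 (log2 fold change 0.41, adjusted p = 0.244). Ube2c, the ubiquitin-conjugating enzyme of the anaphase-promoting complex, had a log2 fold change of 0.33, and the CDK subunit gene Cks2 one of 0.08. The CF and WT values did not overlap for 4.17% of the 48 mitosis genes, 1 higher and 1 lower in CF, against 8.78% of all loci. Without CF library 0, 20 of the 45 replication genes and 19 of the 48 mitosis genes had a log2 fold change above 0.

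Of 28 further regulators of the cycle 25 were tested, none was called and 13 had a log2 fold change above 0, with a median of 0.02. Without CF library 0, 6 of the 25 were above 0 and the median was −0.04. Mybl2, the B-MYB factor that switches on mitotic genes, had 51.9, 31.4, 32.2 and 43.6 CPM in CF libraries 0 to 3, against 29.2, 29.4, 28.4 and 29.8 CPM in WT libraries 0 to 3. All CF values were above all WT values, which lay close together, and the log2 fold change was 0.45 (standard error 0.16, adjusted p = 0.233). Mycn, a MYC family factor of low level here, was at 0.9801 ± 0.471 CPM in the CF libraries and 2.09 ± 1.02 CPM in the WT libraries (log2 fold change −1.09, adjusted p = 0.271). The D cyclin gene Ccnd3 had a log2 fold change of 0.36, and the gene of its kinase, Cdk4, one of 0.05. The CF and WT values did not overlap for 8% of the 25 regulators, 2 higher and 0 lower in CF, against 8.78% of all loci.

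Since Cdkn1a is a target of the tumour suppressor p53, other p53 target genes were read beside it. Of 18 listed 14 were tested, none was called, 7 had a log2 fold change above 0, and the median was 0.06. Plk3, a stress-responsive Polo-like kinase, had 24.7, 35.3, 25.5 and 36.9 CPM in CF libraries 0 to 3, against 22.6, 20.1, 23.8 and 22.9 CPM in WT libraries 0 to 3 (log2 fold change 0.45, adjusted p = 0.207). Zmat3, an RNA-binding p53 target, went the other way, with 20.8, 22.5, 20.9 and 20.4 CPM in CF libraries 0 to 3, against 28.6, 25.4, 24.6 and 26.3 CPM in WT libraries 0 to 3 (log2 fold change −0.31, adjusted p = 0.191). In both genes, named for the smallest unadjusted p of the list, the CF and WT values did not overlap. The groups did not overlap for 21.4% of the 14 genes, 1 higher and 2 lower in CF. That share was 8.78% over all loci. At an unadjusted p under 0.05 by edgeR's test stood 35.7% of the 14, 3 higher and 2 lower in CF, against 15.1% of all loci. The most abundant were Perp, a junction protein gene at 0.42, and the antiproliferative gene Btg2 at 0.36, from a 264 kb locus.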

How the data were processed

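Stranded RNA-seq libraries of CF (4) and WT (4) rat small intestine were grouped by the disease label. Software named in the submitters' processing notes was StringTie, Cuffdiff, STAR 2.3.1z, cutadapt and bcl2fastq, with Rnor_6.0 as the build. Not given in the sources used here were their order, settings, annotation and use of strand. Per locus and library the authors gave estimated counts of fragments, not scaled between libraries, per the file headers. Fractional values made up 5.99% of them and were rounded for the test. The FPKM values, per library, were made by the authors with Cuffdiff's scaling and transcript lengths, per the file headers. They were used for levels between genes and for 2 alternatives. The table's other 2 columns with a value per library stayed unused. Libraries carry the table's numbers, and which titled sample each one is was not known.

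A locus is a bundle of overlapping transcripts and may include neighbouring genes, and near-identical copies elsewhere could share its reads. Loci were kept by edgeR's filterByExpr (minimum count 10, minimum total 15), scaled by TMM, and compared by edgeR's robust quasi-likelihood test (group only, 8 libraries) with Benjamini-Hochberg adjustment over 16941 loci and a threshold of 0.05. Depth was 15.3 M to 20.9 M fragments, and counting error is covered only as far as the spread between libraries shows it. Scores used log2 CPM with a prior count of 2. Tests ran in edgeR 4.0.16, DESeq2 1.42.0 and limma 3.58.1 under R 4.3.3, and summaries and figures in numpy 2.4.6, pandas 2.3.3 and matplotlib 3.10.9 under Python 3.11.15. Promoter windows are from RefSeq in GRCr8, another build than that of the counts, and none of its coordinates was set against those of the table.

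The members, lists and tests were chosen with earlier results of these data known. All members are named. Of each further list the called members are named, or else the 2 with the smallest unadjusted p and the 2 with the highest mean FPKM. Of each marker list the text names the called members. Cftr, Lgr5 and Olfm4 were named after their values were seen. Alternatives were another scaling, no filter, DESeq2, limma-voom, limma on log2(FPKM + 0.1) and log2(FPKM + 1), leaving out each library, and, chosen after seeing the data, leaving out CF libraries 0 and 3 together.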

Additional observations from a re-analysis of the deposited data

Results flagged for a closer look

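In each group of 4, a library was singled out where its gap to the nearest other value took up more of the group's range than Dixon's 95% value allows. Of 74 groups checked, over the members and the replication score, the mitosis score and their difference, 3 were singled out, and chance gives about 1 in 20 (3.7 of 74). Mcm2 was at 78.0 CPM in CF library 0, against 58.9 to 61.8 CPM in the other CF libraries. Pcna was at 119 CPM in CF library 0, against 89.6 to 92.1 CPM in the other CF libraries. Cdk1 was at 43.4 CPM in WT library 2, against 51.1 to 52.4 CPM in the other WT libraries.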

How the results depend on the processing

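Of 16941 loci tested 28 were called, against 553 with no low-count filter, 621 by DESeq2's Wald test, 17 by limma-voom, 5 to 136 with 1 library left out and 47 without CF libraries 0 and 3. Members called were 0 in every alternative but DESeq2's (1, Aurka). Members with a log2 fold change above 0 numbered 28, against 16 to 29 with 1 library left out (16 without CF library 0) and 14 without CF libraries 0 and 3. Without those 2 libraries the median log2 fold change was −0.0500 over all members and −0.0245 over the replication members. With 1 library left out it was −0.02 to 0.20 over all members, 0.01 to 0.24 over replication members and −0.03 to 0.16 over mitosis members, and replication minus mitosis was −0.03 to 0.03. Of 51 single genes 16 changed sign in some alternative other than that removal of 2 libraries. Each of the 16 had a log2 fold change within 0.1235 of 0 in the main fit. Without CF libraries 0 and 3, 18 of the 51 changed sign. In limma on log2(FPKM + 0.1) Mcm6 was at −0.00 and Pcna at −0.0012, in limma on log2(FPKM + 1) Pcna was at −0.0011, and with no filter Mki67 was at 0.0163. With 1 library left out the range was −0.0867 to 0.14 for Mcm6, −0.0488 to 0.24 for Cdc6, −0.0757 to 0.0725 for Pcna, −0.0896 to 0.13 for Rrm1, −0.0884 to 0.34 for Ccnd2, −0.0245 to 0.24 for Ccne2, −0.0831 to 0.0945 for Cdk1 and −0.12 to 0.058 for Mki67. It was −0.0515 to 0.16 for Bub1, −0.0558 to 0.093 for Bub1b, −0.0606 to 0.0981 for Kif11, −0.0729 to 0.0801 for Kif20a, −0.0706 to 0.096 for Tpx2, −0.0054 to 0.26 for Pola2, −0.0575 to 0.15 for Cks2 and −0.0377 to 0.11 for Cdk4. Junb was not called in either FPKM alternative. The cause of these changes was not tested. No paired analysis was possible because the table numbers the libraries 0 to 3 and the sample titles 1 to 4, with nothing that ties them. With 4 libraries a group, small differences in a member were not detectable. The 95% intervals are not adjusted for the number of loci, so a member whose interval excluded 0 could still fail the test. Aurka, for example, had an interval of 0.17 to 0.65 and an adjusted p of 0.149 by edgeR's test.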
